A study of Homo sapiens with 6 samples.

Results

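The SLC25 family is the set of mitochondrial carriers, and it was taken here as every gene symbol made of SLC25A and a number in the 6 deposited count files. The rule found 48 members among 56637 symbols. The libraries come from MM.1S, a line of malignant plasma cells from multiple myeloma. All cells received a short hairpin RNA by lentivirus and were selected with puromycin. In the 3 control libraries (shLuc) the hairpin was against luciferase, a gene that human cells lack, and in the other 3 (shKDM6B) it was against KDM6B. KDM6B takes methyl marks off histone H3 at lysine 27, a site linked to gene silencing. The labels name 1 hairpin target per group and 1 cell line, and number 3 replicates in each group. They do not say whether these were separate transductions, so the p-values speak of variation among these 6 libraries, some or all of it possibly technical.

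Mitochondrial carriers are small proteins, most of which sit in the inner mitochondrial membrane. Each moves one kind of solute, or exchanges one for another, across a membrane that is otherwise nearly closed to ions and metabolites. Different members carry nucleotides, phosphate, cofactors, amino acids, carboxylic acids, iron or glutathione, so they join metabolism in the mitochondrial matrix to that in the cytosol. They are made in the cytosol without a cleaved leader in most cases, and are imported through the TOM complex, the small TIM chaperones and the TIM22 complex.

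RefSeq promoter windows of build GRCh38.p14 were matched by symbol for 40 of the 48 members, and the 250 bases before each start were searched on both strands for 7 short motifs. The 4 windows printed here belong to members that fell by at least 0.3 on the log2 scale and that hold a motif. Each is written 5′ to 3′ on the strand of the gene, with the motif in capitals. The SLC25A17 window, chr22:40819347-40819596 on the minus strand, holds CCAAT and the ETS core CCGGAAGT. The SLC25A24 window, chr1:108200344-108200593 on the minus strand, holds the same ETS core on the opposite strand. The other window of that gene, chr1:108192836-108193085, holds none of the 7 motifs. The SLC25A51 window, chr9:37904128-37904377 on the minus strand, holds the E-box CACGTG. The SLC25A44 window, chr1:156193854-156194103 on the plus strand, holds CCAAT on each strand.
SLC25A17: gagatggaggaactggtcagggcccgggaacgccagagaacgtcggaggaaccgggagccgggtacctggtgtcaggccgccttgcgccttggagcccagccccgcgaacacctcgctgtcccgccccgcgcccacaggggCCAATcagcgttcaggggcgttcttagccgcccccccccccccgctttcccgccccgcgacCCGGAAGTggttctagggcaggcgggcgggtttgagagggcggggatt
SLC25A24: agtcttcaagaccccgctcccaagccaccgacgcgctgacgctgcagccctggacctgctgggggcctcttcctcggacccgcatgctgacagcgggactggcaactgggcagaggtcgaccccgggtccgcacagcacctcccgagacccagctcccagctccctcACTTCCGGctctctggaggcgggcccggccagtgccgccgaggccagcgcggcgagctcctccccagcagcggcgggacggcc
SLC25A51: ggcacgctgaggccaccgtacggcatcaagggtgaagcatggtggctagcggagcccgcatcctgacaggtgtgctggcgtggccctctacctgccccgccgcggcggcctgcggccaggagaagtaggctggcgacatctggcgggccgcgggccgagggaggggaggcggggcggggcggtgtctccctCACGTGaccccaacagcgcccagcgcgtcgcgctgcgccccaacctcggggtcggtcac
SLC25A44: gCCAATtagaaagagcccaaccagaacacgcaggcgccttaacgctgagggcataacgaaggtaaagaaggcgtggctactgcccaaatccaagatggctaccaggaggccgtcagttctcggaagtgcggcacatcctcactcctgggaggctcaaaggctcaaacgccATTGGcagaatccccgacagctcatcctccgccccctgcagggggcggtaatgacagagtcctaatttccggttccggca

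Shares are given over the 27305 genes of the table, counting a gene if any of its windows held the motif, and members were counted in the same way among 9 tested members that fell, 5 that rose and 17 that did not pass. The ETS core was present in 4.13% of genes, in 2 members that fell (SLC25A17, SLC25A24), in 0 of the 5 that rose and in 2 that did not pass (SLC25A26, SLC25A46). CACGTG was present in 7.73% of genes, in 2 members that fell (SLC25A36, SLC25A51), in 0 that rose and in 5 that did not pass (SLC25A13, SLC25A26, SLC25A33, SLC25A38, SLC25A46). CCAAT was present in 37.0% of genes, in 6 members that fell, 2 that rose and 8 that did not pass. The cyclic AMP element TGACGTCA was present in 2.03% of genes, in 1 member that fell (SLC25A36), in 0 that rose and in 2 that did not pass (SLC25A25, SLC25A33). The remaining motifs were the NRF1 site (1.28% of genes), the C/EBP-ATF site TGATGCAA (0.967%) and the YY1 core (0.439%), and none of them was found in the windows of the tested members. These matches describe letters in a window and carry no measurement of binding.

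The deposited libraries held between 7338393 and 9848351 counts. KDM6B itself fell in the shKDM6B libraries. Its counts were 409, 505 and 437 in shLuc and 239, 270 and 348 in shKDM6B (log2 fold change -0.71, SE 0.073, adjusted p = 7.72e-08, edgeR quasi-likelihood test with Benjamini-Hochberg adjustment over 13839 genes). Here and below, adjusted p-values come from that test, calls are those with an adjusted p under 0.05, and levels are in CPM, the count relative to a library size scaled by edgeR's TMM. All 8 plasma cell markers looked up were tested and present, SDC1 among them with 3986 to 4464 counts. PRDM1 was higher in shKDM6B (log2 fold change 0.15, adjusted p = 0.0173). CD38 (-0.45, adjusted p = 3.88e-07) and TNFRSF17 (-0.37, adjusted p = 2.2e-06) were lower, and 5 did not pass. The share that passed was 37.5%, beside 39.1% of all genes tested. Of the mature B cell list, MS4A1 and PAX5 were at 0 to 2 counts in every library, whereas CR2 had 660 to 982 counts (log2 fold change -0.05, adjusted p = 0.515) and BACH2 had 456 to 885 and was lower in shKDM6B (log2 fold change -0.58, adjusted p = 2.65e-08). Keratin counts differed between libraries, and KRT5, KRT14 and KRT19 passed as higher in shKDM6B. EPCAM, the other epithelial marker tested, went the other way and did not pass (log2 fold change -0.83, adjusted p = 0.068). Its counts were 11, 12 and 20 in shLuc and 7, 5 and 13 in shKDM6B. The summed level of 8 epithelial markers was 11.26, 2.598 and 3.195 CPM in shLuc and 30.04, 42.9 and 2.019 CPM in shKDM6B, 4 of the 8 were tested, and KRT5 was at 0 in replicate 3 of both groups. The part of this difference in the results below was not tested. Results that change without the 3 high libraries (shLuc replicate 1, shKDM6B replicates 1 and 2) are named. That fit sets shLuc replicates 2 and 3 against shKDM6B replicate 3 alone. With no replicate in shKDM6B, a call lost or gained there cannot separate keratin from the loss of libraries.

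Carriers moved both ways in the shKDM6B libraries. The glutamate carrier SLC25A22, the folate carrier SLC25A32 and the uncoupling-like SLC25A30 were among those that rose most, and the ATP-magnesium carrier SLC25A24, the glutathione-linked SLC25A40, the peroxisomal SLC25A17, the branched-chain amino acid carrier SLC25A44 and the NAD+ carrier SLC25A51 were among those that fell most. Of the 48 carriers, 37 had enough counts to be tested, 10 were higher in shKDM6B, 10 were lower and 17 did not pass. The share that passed, 54.1%, stands beside 39.1% of all genes tested, of which 20.1% were higher and 18.9% lower. Since these are bulk libraries, fewer cells with a transcript and less of it per cell cannot be told apart. The family's median log2 fold change was 0.04, beside -0.01 over all genes. Its summed counts were 0.34% to 0.346% of the total in each library, so the family as a whole kept its share while members moved in opposite directions. The 3 libraries of one group lay wholly above those of the other for 23 tested members (62.2%), 14 with shKDM6B above and 9 below. Over all genes this held for 48.4%, with 24.5% above and 23.9% below. Of the 37 tested members, 10 passed with a log2 fold change of at least 0.3 either way, 4 higher and 6 lower. Over all genes this held for 21.1% (10.3% higher, 10.8% lower). Of the 20 that passed, 9 changed by less than 1.2-fold. Over all genes this held for 2105 of the 5405 that passed.

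The direction split depended on how the libraries were scaled. When TMM factors were set only on sparsely covered genes (under 0.03 counts per base of exon; "sparse-gene scaling" below), 11 members were higher and 7 lower, beside 35.9% of all genes (23.0% higher, 12.9% lower). Over all genes the split was 3183 higher and 1787 lower with that scaling, and 2783 higher and 2622 lower with the usual one. DESeq2's Wald test called 7 members higher and 7 lower, beside 27.6% of all genes (14.2% higher, 13.4% lower). Calls lost only at the stricter threshold of 0.01 are not listed gene by gene. The fit without the 3 libraries with keratin counts keeps only shKDM6B replicate 3 in its group, so its counts of calls are not given.

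**Figure D1:**
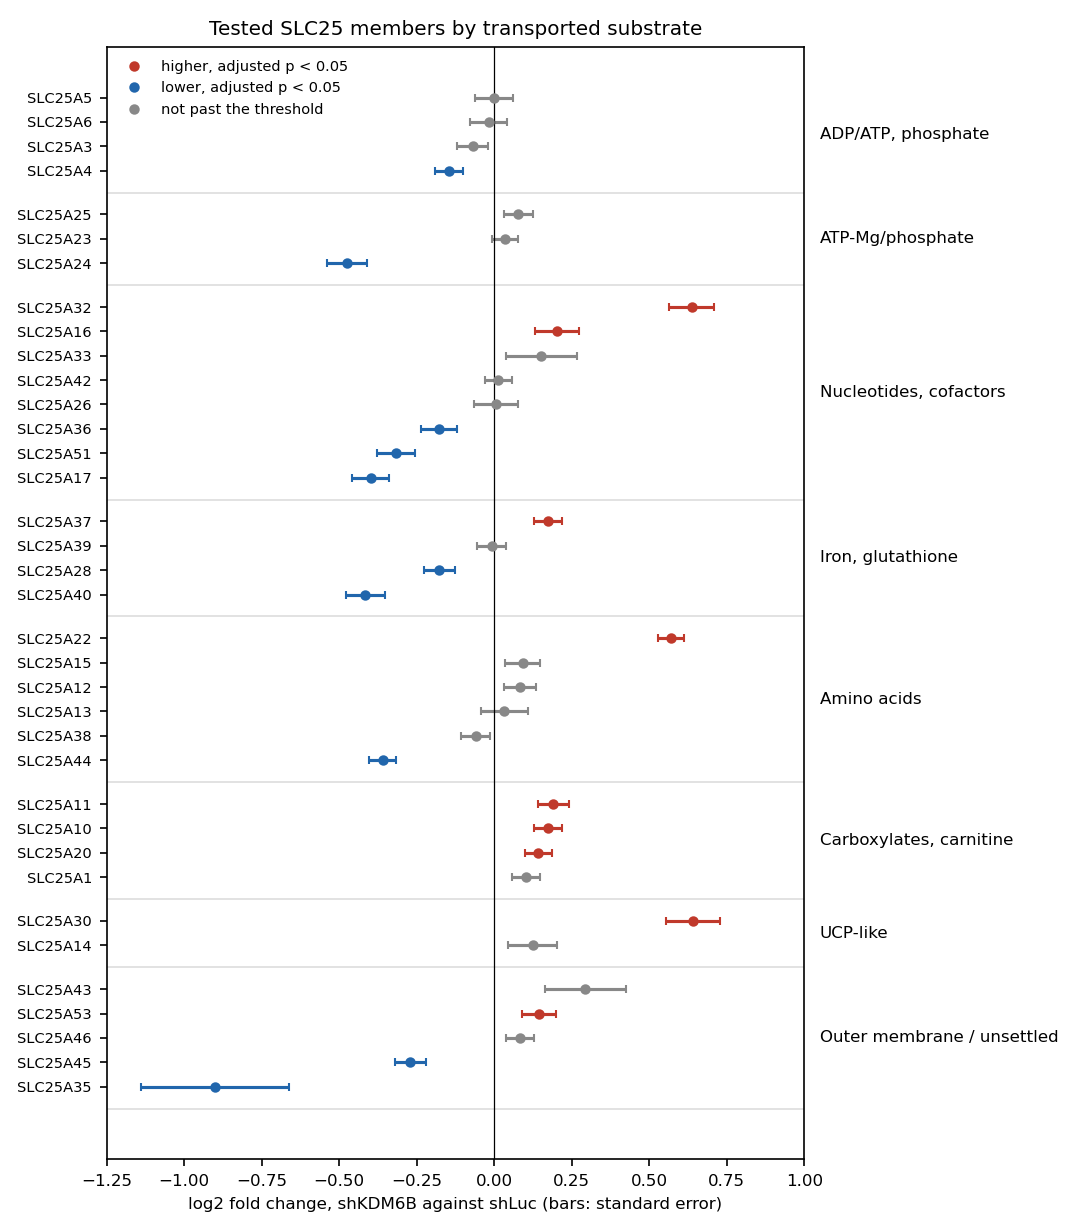
The log2 fold change of shKDM6B against shLuc is plotted on the x axis for the tested carriers reported here, grouped by transported substrate, with bars for the standard error. Red points passed as higher, blue points as lower and grey points did not pass. All 4 carboxylate and carnitine carriers lie above 0, while the cofactor class runs from SLC25A17 at -0.40 to SLC25A32 at 0.64.

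The carriers that exchange ADP for ATP and bring in phosphate, which feed oxidative phosphorylation, gave 1 small fall among 4 tested members. That share, 25.0%, stands beside 39.1% of all genes. SLC25A4, SLC25A5 and SLC25A6 are the ADP/ATP carriers, and SLC25A3 is the phosphate carrier. SLC25A5, the form known from dividing cells, stood at 165.7, 147.2 and 141.4 CPM in shLuc and 164.1, 154.9 and 135.4 in shKDM6B. SLC25A6 stood at 264.9, 235.5 and 224.4 CPM in shLuc and 257.5, 242.7 and 215.6 in shKDM6B. In both genes the groups overlapped over most of their range, and replicate 1 was the highest and replicate 3 the lowest in each group. Their log2 fold changes were -0.000575 (SE 0.062, adjusted p = 0.996) and -0.02 (SE 0.061, adjusted p = 0.844). SLC25A3 stood at 248.8, 227.7 and 223.1 CPM in shLuc and 231.1, 227.6 and 207.8 in shKDM6B (log2 fold change -0.07, adjusted p = 0.296), and its groups overlapped.

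SLC25A4, the form known from heart and muscle, was the member of this class that passed. It stood at 125.4, 126.9 and 120.2 CPM in shLuc and 117.1, 113.4 and 106.7 in shKDM6B (log2 fold change -0.15, SE 0.046, adjusted p = 0.0147). The groups did not overlap, but the gap between them was small. The adjusted p was 0.364 with sparse-gene scaling, 0.0761 without shLuc replicate 2, 0.108 without shKDM6B replicate 3 and 0.0723 by DESeq2. SLC25A31, the testis form, was not tested. Per kilobase of exon SLC25A6 (112 CPM per kb in shLuc), SLC25A5 (101) and the glutathione carrier SLC25A39 (73.6) had the highest levels of the family, with SLC25A4 at 25.6. Exon length here covers every annotated exon base of a gene, not 1 transcript, so this order depends on the annotation. SLC25A3, at 233.2 CPM in shLuc, has 8896 such bases and so stood at 26.2 CPM per kb.

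SLC25A24 fell while its 2 tested relatives did not pass (33.3% of the class called, beside 39.1% of all genes). SLC25A23, SLC25A24 and SLC25A25 exchange ATP-magnesium for phosphate and are activated by calcium, which sets the size of the matrix nucleotide pool. SLC25A24 stood at 49.71, 48.9 and 55.75 CPM in shLuc and 36.02, 38.24 and 36.94 in shKDM6B. All 3 shKDM6B libraries lay well below the lowest control (log2 fold change -0.48, SE 0.065, adjusted p = 3.96e-06). SLC25A23, the most abundant of the 3 in CPM, stood at 174.5, 169.7 and 163.8 in shLuc and 177.5, 170.3 and 172.5 in shKDM6B, and its groups overlapped (log2 fold change 0.04, adjusted p = 0.554). SLC25A25 had a log2 fold change of 0.08 (adjusted p = 0.2). The differences between these members' changes were not tested.

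The nucleotide and cofactor carriers held 6 calls among 9 tested members, 3 in each direction (66.7%, beside 39.1% of all genes). SLC25A32, which carries folate and is needed for matrix one-carbon metabolism and FAD, rose. Its level was 27.88, 26.99 and 31.4 CPM in shLuc and 45.31, 46.6 and 42.8 in shKDM6B. Every shKDM6B library exceeded every control (log2 fold change 0.64, SE 0.071, adjusted p = 2.58e-07). SLC25A16, linked to coenzyme A, was also higher, at a log2 fold change of 0.20 (adjusted p = 0.0274). Without shLuc replicate 2 the value for SLC25A16 was 0.12 (adjusted p = 0.22), and the call was also lost without shKDM6B replicate 2 (adjusted p = 0.103), without shKDM6B replicate 3 (0.0906) and by DESeq2 (0.116).

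Lower in the same class were SLC25A17, SLC25A51 and SLC25A36. SLC25A17 lies in the peroxisome membrane and carries coenzyme A, FAD and related nucleotides. It stood at 52.87, 59.07 and 56.97 CPM in shLuc and 42.25, 41.58 and 44.41 in shKDM6B (log2 fold change -0.40, SE 0.060, adjusted p = 1.31e-05). SLC25A51, the mitochondrial NAD+ carrier, stood at 54.52, 60.31 and 52.56 CPM in shLuc and 42.89, 46 and 45.32 in shKDM6B (log2 fold change -0.32, SE 0.062, adjusted p = 2.8e-04). In both genes the shKDM6B libraries lay wholly below the controls. Their windows, printed above, hold different motifs: SLC25A17 has an ETS core and SLC25A51 has an E-box.

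SLC25A36, a pyrimidine nucleotide carrier, fell by 0.18 on the log2 scale (adjusted p = 0.0178), and its level was 128.0 ± 11.8 CPM (SD, n = 3) in shLuc and 113.3 ± 7.1 in shKDM6B. That call was lost without shLuc replicate 3 (log2 fold change -0.10, adjusted p = 0.143) and without shKDM6B replicate 1 (0.0684) or 2 (0.0887). It was also lost with sparse-gene scaling (0.187), by DESeq2 (0.0503) and without the 3 libraries with keratin counts. SLC25A33, its paralog, was low (11.9 ± 0.76 CPM in shLuc) and did not pass (log2 fold change 0.15, adjusted p = 0.316). SLC25A42, a coenzyme A carrier and the most abundant of the class in CPM, stood at 146.9, 143.3 and 139.2 in shLuc and 145, 138.5 and 149.2 in shKDM6B. Its groups overlapped and its log2 fold change was 0.01 (adjusted p = 0.841). SLC25A26, which brings in the methyl donor S-adenosylmethionine, had a log2 fold change of 0.01 as well (adjusted p = 0.964).

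**Figure D2:**
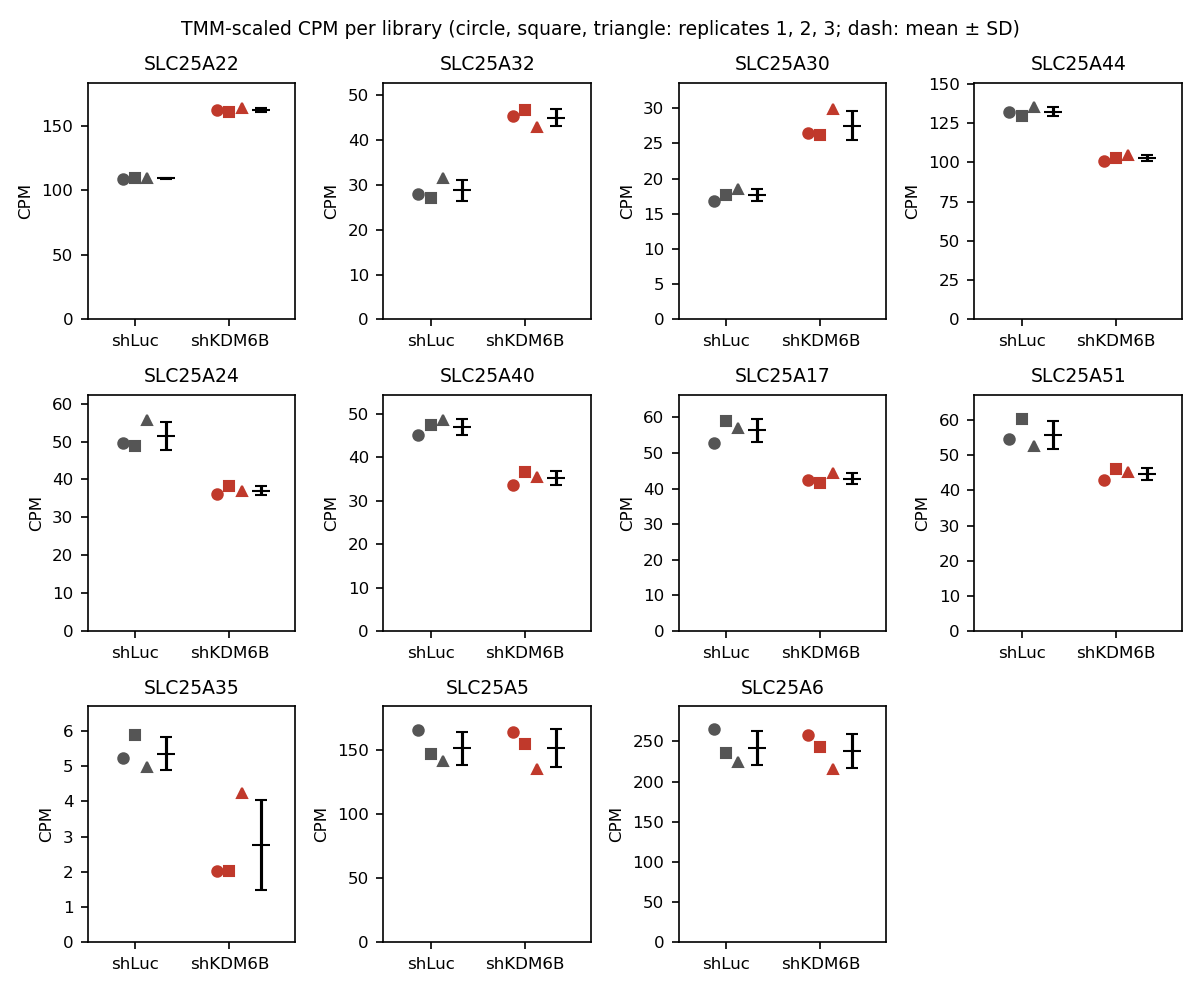
TMM-scaled CPM is plotted on the y axis, starting at 0, for 11 carriers in each of the 6 libraries, with circles, squares and triangles for replicates 1, 2 and 3 and a dash with bars for the mean ± SD of 3. SLC25A22 lies at 108.6 to 109.7 CPM in shLuc and 160.7 to 163.7 in shKDM6B, whereas the 2 groups of SLC25A5 and of SLC25A6 overlap.

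Iron and glutathione carriers split between and within their 2 pairs of paralogs. The mitoferrins SLC25A37 and SLC25A28 bring iron to the matrix for heme and iron-sulfur cluster synthesis. SLC25A37, mitoferrin of the red cell lineage, rose from 94.5 ± 1.4 to 106.5 ± 4.1 CPM (means ± SD of 3; log2 fold change 0.17, adjusted p = 0.00406). SLC25A28, the widely expressed mitoferrin, fell from 77.6 ± 1.7 to 68.8 ± 2.5 CPM (log2 fold change -0.18, adjusted p = 0.00616), and lost the call with sparse-gene scaling (adjusted p = 0.166) and by DESeq2 (0.0578). SLC25A39 and SLC25A40 are paralogs needed for glutathione in the matrix. SLC25A40 stood at 45.04, 47.43 and 48.48 CPM in shLuc and 33.6, 36.68 and 35.43 in shKDM6B (log2 fold change -0.42, SE 0.063, adjusted p = 1.5e-05). The groups did not overlap. SLC25A39, the most abundant of the class, stood at 276.4, 251.8 and 249.9 CPM in shLuc and 263.2, 260.8 and 249.2 in shKDM6B, which overlap (log2 fold change -0.01, adjusted p = 0.913). The difference in change between the paralogs of a pair was not tested.

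Among the 6 tested amino acid carriers, SLC25A22 rose, SLC25A44 fell and 4 did not pass. The share that passed was 33.3%, beside 39.1% of all genes. SLC25A22 takes glutamate into the matrix together with a proton. It stood at 108.6, 109.4 and 109.7 CPM in shLuc and 162.3, 160.7 and 163.7 in shKDM6B. The spread within each group was small beside the gap between them, and the log2 fold change was 0.57, with SE 0.041 (adjusted p = 3.63e-10). SLC25A44, which takes up branched-chain amino acids, stood at 132, 129.7 and 135.2 CPM in shLuc and 101.2, 102.8 and 105 in shKDM6B (log2 fold change -0.36, SE 0.043, adjusted p = 5.99e-07). No library of one group reached the range of the other.

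The aspartate/glutamate exchangers SLC25A12 and SLC25A13, parts of the malate-aspartate shuttle that moves reducing power into mitochondria, had log2 fold changes of 0.08 (adjusted p = 0.208) and 0.03 (adjusted p = 0.769). The ornithine carrier SLC25A15, of the urea cycle, had 0.09 (adjusted p = 0.207). SLC25A38, which brings in glycine for heme synthesis, had -0.06 (adjusted p = 0.331). Per kilobase of exon SLC25A22 was at 23.5 CPM in shLuc and 34.9 in shKDM6B.

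Of the 4 tested carboxylate and carnitine carriers, 3 rose by small amounts and SLC25A1 did not pass, beside 20.1% of all genes called higher. All 4 had shKDM6B libraries wholly above the controls, beside 24.5% of all genes. SLC25A10, which exchanges dicarboxylates such as malate and succinate for phosphate, stood at 152, 158.7 and 142.7 CPM in shLuc and 174.1, 169.1 and 167.9 in shKDM6B (log2 fold change 0.17, SE 0.045, adjusted p = 0.00422). SLC25A11, the oxoglutarate/malate exchanger of the same shuttle, had a log2 fold change of 0.19 (adjusted p = 0.00403). SLC25A20, which brings in acylcarnitines for fatty acid oxidation, had 0.14 (adjusted p = 0.0108). The citrate carrier SLC25A1, which exports citrate for lipid synthesis, went from 132.8 ± 3.4 to 142.7 ± 6.5 CPM (means ± SD of 3) and did not pass (log2 fold change 0.10, adjusted p = 0.0764). The class median was 0.16, beside -0.01 over all genes. The call of SLC25A10 was lost without shLuc replicate 3 (adjusted p = 0.0511), as was that of SLC25A20 (0.06). SLC25A20 also lost it by DESeq2 (0.091) and without the libraries with keratin counts, and SLC25A1 gained it without shKDM6B replicate 3 (0.0363). Change in each of these 4 genes was under 1.2-fold, and their counts lie in the range where growth with depth was incomplete, as given below.

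SLC25A30 and SLC25A14 resemble the uncoupling proteins, known from proton leak across the inner membrane. SLC25A30 stood at 16.89, 17.62 and 18.51 CPM in shLuc and 26.47, 26.17 and 29.88 in shKDM6B (log2 fold change 0.64, SE 0.088, adjusted p = 4.33e-06). All shKDM6B libraries lay above all controls. SLC25A14 stood at 27.33, 27.44 and 26.55 CPM in shLuc and 28.13, 32.26 and 28.26 in shKDM6B, also without overlap, but did not pass (log2 fold change 0.12, adjusted p = 0.222).

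Members of the outer membrane or without a settled substrate gave 3 calls among 5 tested (60.0%, beside 39.1% of all genes). SLC25A46, an outer membrane protein of mitochondrial dynamics and the most abundant of this class in CPM, stood at 158.1, 154.6 and 167.8 in shLuc and 161.8, 171.9 and 174.9 in shKDM6B. Its groups overlapped (log2 fold change 0.08, adjusted p = 0.161). SLC25A45 fell from 104.6 ± 2.0 to 86.6 ± 5.6 CPM (means ± SD of 3; log2 fold change -0.27, adjusted p = 1.33e-04). SLC25A53 rose by 0.15 (adjusted p = 0.0394). Its call was lost by DESeq2 (adjusted p = 0.201), with upper-quartile scaling (0.0647) and with no filter on low counts (0.0721). It was also lost without shLuc replicate 1 (0.164) or 3 (0.0987), without shKDM6B replicate 2 (0.118) or 3 (0.0999), and without the libraries with keratin counts. SLC25A43 did not pass (log2 fold change 0.29, adjusted p = 0.0808). It did pass without shKDM6B replicate 2 (0.0196), with sparse-gene scaling (0.0127) and without the libraries with keratin counts.

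SLC25A35 had the lowest fold change of the family, from very few counts. Its counts were 38, 52 and 45 in shLuc and 16, 17 and 42 in shKDM6B, or 5.218, 5.873 and 4.958 CPM and 2.036, 2.031 and 4.239 CPM. The fall came from shKDM6B replicates 1 and 2, the libraries with the most keratin counts, while replicate 3 lay near the controls. The fitted log2 fold change was -0.90, with SE 0.239 (adjusted p = 0.00447). It was -1.39 without shKDM6B replicate 3. Without the 3 libraries with keratin counts, where shKDM6B replicate 3 stood alone in its group, it was -0.35 and did not pass. In GENCODE release 29, 33.2% of the SLC25A35 exon bases overlap RANGRF on the opposite strand, and the library kit named in the labels does not mark strand, so reads there cannot be told apart. RANGRF, with a mean of 62 counts, was higher in shKDM6B (log2 fold change 0.68, adjusted p = 9.98e-04).

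Other members share bases with neighbours as well. SLC25A32 shares 11.1% of its exon bases with DCAF13 on the opposite strand, which had a log2 fold change of 0.23 (adjusted p = 0.00361), and 69.7% with the annotated transcript AC012213.5 on its own strand. SLC25A10 shares 46.6% with AC139530.2 on its own strand. SLC25A26 shares 15.5% with LRIG1 on the opposite strand, which had -0.27 (adjusted p = 1.55e-05). SLC25A11 shares 9.14% with RNF167 on the opposite strand, which had -0.06 (adjusted p = 0.383). These shares come from a later annotation than the build of the counts, and their part in the values was not tested. SLC25A6 lies in the pseudoautosomal region of the sex chromosomes.

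The filter on low counts removed the other 11 members, of which no library held more than 10 counts each. They are the testis ADP/ATP carrier SLC25A31, the ATP-magnesium carrier SLC25A41, the NAD+ carrier paralog SLC25A52, the amino acid carriers SLC25A2, SLC25A18 and SLC25A29, the oxoadipate carrier SLC25A21, the uncoupling-like SLC25A27, and SLC25A34, SLC25A47 and SLC25A48. SLC25A47, known from liver, had 0 counts in every library. With no filter on low counts 47 members were tested, and 9 were higher and 10 lower, beside 18.5% of all genes in either direction. SLC25A35 was the tested member with the fewest counts.

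Counts of the densest carriers grew less than library totals did. From replicate 1 to replicate 3 the total grew 1.23-fold in shLuc and 1.24-fold in shKDM6B. SLC25A5 grew 1.06-fold and 1.04-fold, and SLC25A6 grew 1.06-fold in both groups. SLC25A39 grew 1.13-fold and 1.19-fold. SLC25A3 also grew less than the total, 1.12-fold and 1.13-fold, but at 0.218 counts per base of exon it is not among the densest. Of the 9 members with at least 0.3 counts per base of exon, 8 in shLuc and all 9 in shKDM6B grew less than the total. Of the 12 members under 0.1 counts per base, 8 and 10 grew more. SLC25A3, SLC25A5, SLC25A6 and SLC25A39 together made up 27.5%, 25.3% and 24.9% of the family's counts in shLuc replicates 1, 2 and 3. In shKDM6B replicates 1, 2 and 3 they made up 26.2%, 25.6% and 23.6%. A change in dense members can be understated where counts do not grow with depth, and the cause of this pattern was not tested.

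**Figure D3:**
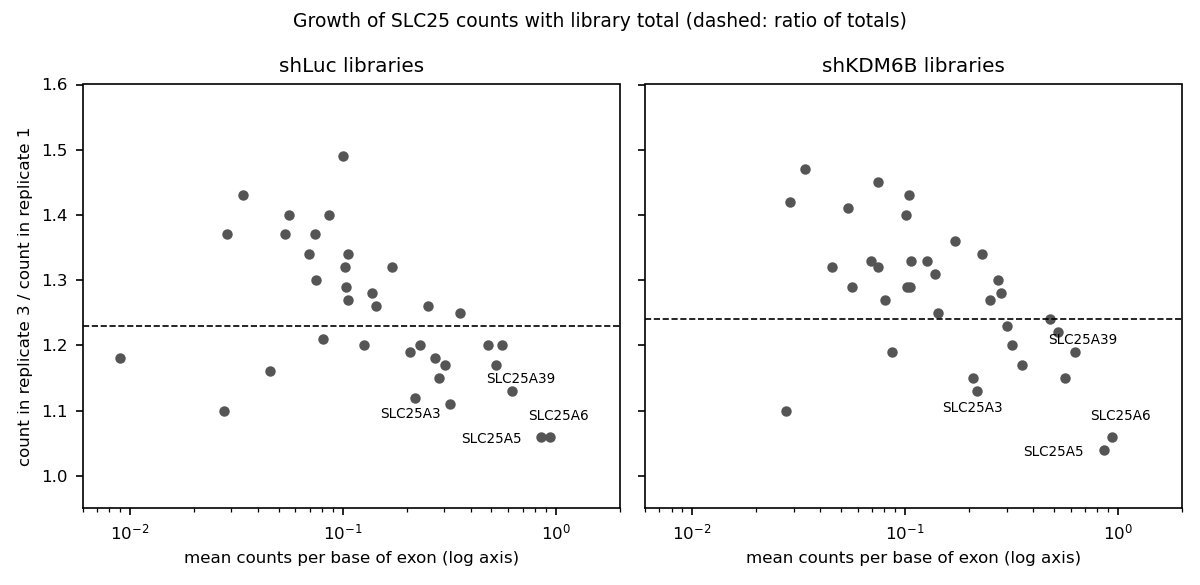
The count in replicate 3 divided by that in replicate 1 is plotted on the y axis against mean counts per base of exon on a log x axis for tested carriers, with shLuc libraries on the left and shKDM6B on the right, and a dashed line at the ratio of library totals. Of the 9 carriers with at least 0.3 counts per base, 8 lie below the line in shLuc, the exception being SLC25A28 at 1.25, with SLC25A5 at 1.06 in shLuc and 1.04 in shKDM6B; SLC25A35 in shKDM6B, at 2.62, is beyond the axis and not drawn.

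Genes that work beside the carriers included large increases in calcium uniporter and carnitine genes. Of 76 such genes in 4 lists, 70 were tested, 16 were higher, 7 were lower and 47 did not pass, a share of 32.9% beside 39.1% of all genes. With sparse-gene scaling the split was 16 higher and 1 lower. MTCH2, 1 of the 4 tested family members that carry other names, is an outer membrane protein that inserts other proteins. It rose from 104.2 ± 1.6 to 119.8 ± 5.5 CPM (log2 fold change 0.20, adjusted p = 0.00129). The call was lost without the libraries with keratin counts.

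The import route of the carriers gave 4 calls among 15 tested genes (26.7%, beside 39.1% of all genes). AGK, a lipid kinase that is also a subunit of the human TIM22 complex, rose by 0.32 on the log2 scale (SE 0.048, adjusted p = 1.43e-05), from 101.1, 112.9 and 109.7 CPM in shLuc to 137.1, 138.2 and 129.4 in shKDM6B. TOMM70A, the receptor for carrier precursors, rose by 0.20 (adjusted p = 5.74e-04). TOMM20, the receptor for precursors with a leader, fell by 0.16 (adjusted p = 0.0103), and TIMM22, the pore of the carrier translocase, fell by 0.14 (adjusted p = 0.0334). The call of TOMM20 was lost with sparse-gene scaling (adjusted p = 0.396) and without shKDM6B replicate 3 (0.0731). The call of TIMM22 was lost with sparse-gene scaling (adjusted p = 0.332), by DESeq2 (0.163) and with no filter on low counts (0.0748). It was also lost without shLuc replicate 1 (0.107) or 2 (0.0957), without shKDM6B replicate 1 (0.085) or 3 (0.115), and without the libraries with keratin counts.

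Other mitochondrial transporters gave 5 higher calls and 1 lower among 20 tested (30.0%, beside 39.1% of all genes). CCDC109B, an older symbol of MCUB, a paralog of the calcium uniporter pore, rose most. It stood at 18.54, 25.3 and 23.58 CPM in shLuc and 57.53, 55.8 and 55.62 in shKDM6B (log2 fold change 1.31, SE 0.078, adjusted p = 2.31e-11). MCU, the pore itself, stood at 26.64, 26.88 and 27.33 CPM in shLuc and 38.56, 41.22 and 39.87 in shKDM6B, a log2 fold change of 0.57 (adjusted p = 7.08e-07). In both genes the groups were far apart. SFXN1, a serine transporter of the inner membrane, rose by 0.33 (adjusted p = 2.01e-06). LETM1, an ion exchanger of the inner membrane, fell by 0.22 (adjusted p = 2.38e-04), and lost the call with sparse-gene scaling (adjusted p = 0.116). The other 2 higher genes were SFXN5 and ABCB10.

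Enzymes that use what the carriers bring gave 8 higher and 4 lower calls among 31 tested, a share of 38.7%, close to the 39.1% of all genes. CPT1A, which makes the acylcarnitines that SLC25A20 carries, rose by 0.61 on the log2 scale (SE 0.041, adjusted p = 1.32e-10), from 144, 144.6 and 140 CPM in shLuc to 220.8, 218.2 and 215.3 in shKDM6B. CPT2, which turns acylcarnitines back into acyl-CoA in the matrix, fell by 0.26 (adjusted p = 3.74e-04), and was named after its values were seen. CRAT, carnitine acetyltransferase, rose by 0.87 (adjusted p = 1.25e-07). PYCR1, a proline synthesis enzyme of the matrix, rose by 0.50 (adjusted p = 1.06e-08). MTHFD1L, a one-carbon enzyme that uses the folate pool SLC25A32 supplies, rose by 0.47 (adjusted p = 2.84e-08). MTHFD2, also a one-carbon enzyme, went the other way and fell by 0.18 (adjusted p = 0.00148). The other 3 lower genes, GSR, MTHFD2 and GOT1, were also named after their values were seen. The 31 enzymes gave 7 higher calls and 1 lower with sparse-gene scaling, beside 23.0% and 12.9% of all genes, so most of the lower calls depended on the scaling.

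**Figure D4:**
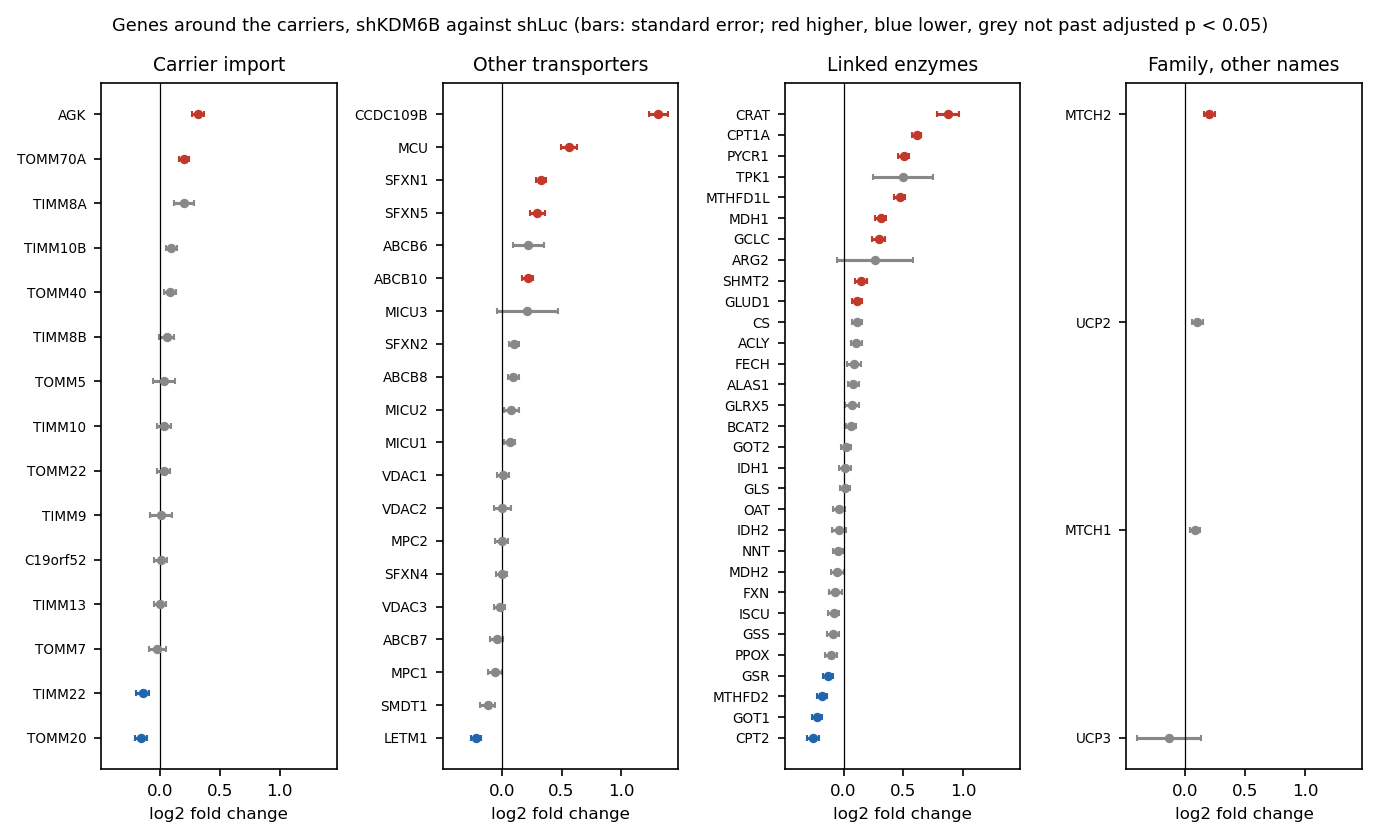
The log2 fold change of shKDM6B against shLuc is plotted on the x axis for each tested gene of 4 lists around the carriers, with bars for the standard error and red for higher, blue for lower and grey for not past. CCDC109B at 1.31, CRAT at 0.87, CPT1A at 0.61 and MCU at 0.57 lie farthest to the right.

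Of the 20 called carriers, 12 kept their call under all 16 alternatives, including those that left out libraries. Among the 6 higher ones were SLC25A11, SLC25A22, SLC25A30, SLC25A32 and SLC25A37. The 6 lower ones were SLC25A17, SLC25A24, SLC25A40, SLC25A44, SLC25A45 and SLC25A51. The other 8 lost it in at least 1, namely SLC25A10, SLC25A16, SLC25A20 and SLC25A53 among the higher and SLC25A4, SLC25A28, SLC25A35 and SLC25A36 among the lower.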

How the data were processed

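RNA from 6 MM.1S libraries was measured by RNA-seq. Counts per gene were deposited by the authors as whole numbers. STAR, featureCounts and DESeq and the build GRCh37 (hg19) are named in the submitters' processing notes, without versions. The deposited table of normalized values was not used. One line per library had no count and was left out.

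The counts were tested with edgeR 4.0.16 (R 4.3.3): filterByExpr, TMM and the quasi-likelihood test with Benjamini-Hochberg adjustment over 13839 genes, tested first on simulated data. Totals of 7338393 to 9848351 limit precision for low genes. Among genes under 0.03 counts per base with at least 20 counts over a pair, replicates differed by more than counting noise (largest chi-square p 0.00161). Denser genes were not put to that test. Exon lengths came from GENCODE release 29 (GRCh38), a later build than the authors', and serve only as lengths and overlaps.

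Members, classes and lists were chosen with earlier results of these data known. Values in every library are given for members that passed with a log2 fold change of at least 0.3, the ADP/ATP and phosphate carriers and the highest of each class. Up to 4 neighbours per list that passed with the smallest p were picked to be named, and only some have values in every library. Alternatives were scaling (DESeq2 1.42.0 size factors, upper quartile, genes under 0.03 counts per base), filters, the replicate block, left-out libraries, DESeq2, limma-voom (limma 3.58.1) and a threshold of 0.01. Some tested genes are counted here but not reported one by one.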

Additional observations from a re-analysis of the deposited data

How the results depend on the processing

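The count of carriers past the threshold was 14 to 22 under the 16 alternatives, against 20, and no called carrier changed direction. Leaving out 1 library gave 7 to 10 higher and 9 or 10 lower. Over the settings other than those named with the report's values, 18.5% to 44.9% of all genes passed. KDM6B stayed lower and past the threshold in each, with log2 fold changes of -0.794 to -0.58. Among the neighbouring lists the lower count, 7, was 1 with sparse-gene scaling, 4 with an adjusted p under 0.01 and 4 to 8 without 1 library (4 without shKDM6B replicate 3). The cause was not tested.

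Carriers near 0 that did not pass changed sign. Upper-quartile scaling gave -0.0124 for SLC25A26 and -0.00454 for SLC25A42. Sparse-gene scaling gave 0.0576 for SLC25A5, 0.0394 for SLC25A6 and 0.0475 for SLC25A39, and no filter gave 0.000842 for SLC25A5. Without 1 library the values ran from -0.0588 to 0.0807 for SLC25A5 (0.0617 without shLuc replicate 1, the highest without shKDM6B replicate 3), from -0.0736 to 0.0546 for SLC25A6, from -0.0387 to 0.0352 for SLC25A39, from -0.0391 to 0.0762 for SLC25A13, from -0.0352 to 0.0251 for SLC25A26 and from -0.0115 to 0.038 for SLC25A42.

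With the replicate number as a block, 12 carriers were higher and 10 lower, and 3166 and 3052 of all genes. SLC25A1 (adjusted p = 0.0248) and SLC25A43 (0.0446) gained the call. The deviations of same-numbered libraries correlated at 0.116, -0.0767 and 0.152, so the numbers were not taken as pairs, and not every library correlated best with its own number. The 11 carriers under the filter have at most 10 counts in a library, which limits what a test of them can show. With no filter, 47 carriers were tested.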

Other observations

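The files hold 40 pseudogene symbols of the SLC25 family. Of these, 18 had any count, none had more than 5 in a library, and none was tested. Their summed counts were 8, 16 and 19 in shLuc and 12, 16 and 21 in shKDM6B, beside 25326 to 33931 counts for the family itself. Of 3 antisense symbols named after members, SLC25A5-AS1 was tested, with 38, 44 and 46 counts in shLuc and 30, 40 and 65 in shKDM6B (log2 fold change 0.02, adjusted p = 0.947, edgeR). It shares 15.1% of the exon bases of SLC25A5. SLC25A30-AS1 had 2 counts in shLuc replicate 1 and 0 elsewhere, and SLC25A21-AS1 had 0 in every library.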
